A study of Macaca mulatta with 10 samples.

Results

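The collagen chain genes of the rhesus monkey (*Macaca mulatta*) were followed through skeletal muscle and adipose tissue. All genes whose symbol has the form COL, number, A, number were taken from the 28595 genes counted in every library, and 35 were found, each with 1 row. They comprise 8 fibrillar chains, 6 chains of the basement membrane (type IV), 4 of the microfibrillar type VI, 9 fibril-associated chains with interrupted triple helices (FACIT), 2 multiplexins, 4 transmembrane chains and 2 chains of the hexagonal network type. A further 10 chains, COL1A2, COL5A3, COL6A4, COL6A6, COL7A1, COL10A1, COL22A1, COL24A1, COL26A1 and COL28A1, had no named row and were not analysed here. Poly(A) RNA was sequenced from muscle and adipose tissue of 5 male monkeys, 1 strand-specific library per animal and tissue (10 libraries). Monkeys rhesus_920401, rhesus_940129, rhesus_940313 and rhesus_950509 are the control group. Monkey rhesus_950807 is the hyperinsulinemic case of extreme high insulin level, a heterozygous carrier of a nonsense mutation of *PRKD2* and, per the study, obese and insulin resistant. Each hyperinsulinemic value is therefore 1 animal, and its genotype, insulin level and body weight cannot be told apart. Age at sampling and the body site of each piece were not given in the sources used here. All animals were fed the same chow in the same facility.

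Collagens are the main structural proteins of the extracellular matrix. Fibrillar chains assemble into the fibrils that carry tension, type IV chains into the sheet under endothelium and around each adipocyte and muscle fiber, and type VI chains into beaded microfilaments that lie between that sheet and the fibrils. FACIT chains decorate fibril surfaces, multiplexins sit in or near basement membranes, transmembrane collagens anchor cells, and hexagonal network chains are found around vessels and in the cornea. Chains are hydroxylated, glycosylated and folded in the endoplasmic reticulum, trimmed after secretion and then crosslinked, and cells bind them through integrins and discoidin domain receptors. In muscle the matrix sheathes fibers and bundles, and in adipose tissue it surrounds adipocytes and vessels and accumulates in fibrosis.

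The libraries held 30669915 to 43268985 mapped reads, of which 48.2% to 64.6% lay in genes. The top 10 genes by reads held 30.3 to 32.9% of reads in genes in control muscle and 5.97 to 8.09% in control adipose tissue. Levels are given as RPKM, the reads of a gene relative to its transcript length and to the mapped reads of the library, with the 4 control values always in the order rhesus_920401, rhesus_940129, rhesus_940313 and rhesus_950509. Because a few genes hold so much of the muscle libraries, tests used edgeR with TMM scaling, in which a log2 difference between tissues comes out smaller than the RPKM ratio of the same gene. The median log2 difference of all genes tested was 0.23 with TMM scaling and 1.61 when libraries were scaled by mapped totals alone. The mutated gene, *PRKD2*, measured 1.14, 1.46, 1.21 and 1.79 RPKM in control muscle and 0.387 in the hyperinsulinemic monkey, below every control. In adipose tissue it measured 4.52, 6.12, 5.52 and 3.27 RPKM in the controls and 3.66 in the hyperinsulinemic monkey, within the control range. The labelled tissues carried their markers, since adipocyte markers summed to 3413 to 7325 RPKM in control adipose tissue and 68.7 to 144 in control muscle, and 1 of the 8, the gene named *FABP4*, went the other way (0.254 to 3.44 against 27.7 to 68.7). Muscle actin, *ACTA1*, reached 101 and 80.9 RPKM in the adipose libraries of rhesus_920401 and rhesus_940313 and at most 1.72 in the other 3, so adipose counts are also given without those 2 libraries.

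Collagen mRNA was more abundant in adipose tissue than in muscle in every animal. Reads of the 35 chains made up 0.872% to 1.18% of gene reads in control adipose tissue (1.08 ± 0.141, SD, n = 4) and 0.0748% to 0.176% in control muscle (0.130 ± 0.0422, SD, n = 4). Their RPKM summed to 1362, 1386, 814 and 1125 in control adipose tissue and to 159, 158, 96.6 and 189 in control muscle. The hyperinsulinemic monkey had 1635 summed RPKM in adipose tissue, above all controls, and 131 in muscle, inside their range. Monkey rhesus_940313 had the lowest sum of the controls in both tissues.

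A handful of chains supplied most of this message. In control adipose tissue the order by mean RPKM was *COL1A1*, *COL3A1*, *COL6A2*, *COL6A1*, *COL4A1* and *COL4A2*, and in control muscle *COL6A2*, *COL6A1*, *COL1A1*, *COL3A1*, *COL4A2* and *COL15A1*. Type VI chains thus led in muscle and the chain of type I collagen led in adipose tissue, although neighbours in either order overlapped between animals, apart from *COL3A1* and *COL4A2*, and *COL6A3* and *COL5A2*, in muscle, and *COL6A3* and *COL5A2* in adipose tissue. By RPKM *COL6A2* was the top chain in 5 of 5 muscle libraries, while *COL1A1* was first in 4 of 5 adipose libraries and *COL3A1* in that of rhesus_950509. The 4 leading chains of a library held 65.5% to 76.0% of its collagen RPKM, and the 7 leading ones 88.8% to 92.5%. At the other end, 16 of the 35 chains stayed under a mean of 1 RPKM in each comparison and were not tested. They include the cartilage chains *COL2A1*, *COL9A1*, *COL9A2*, *COL9A3* and *COL11A1*, none of which passed 0.351 RPKM in any library.

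**Figure D1:**
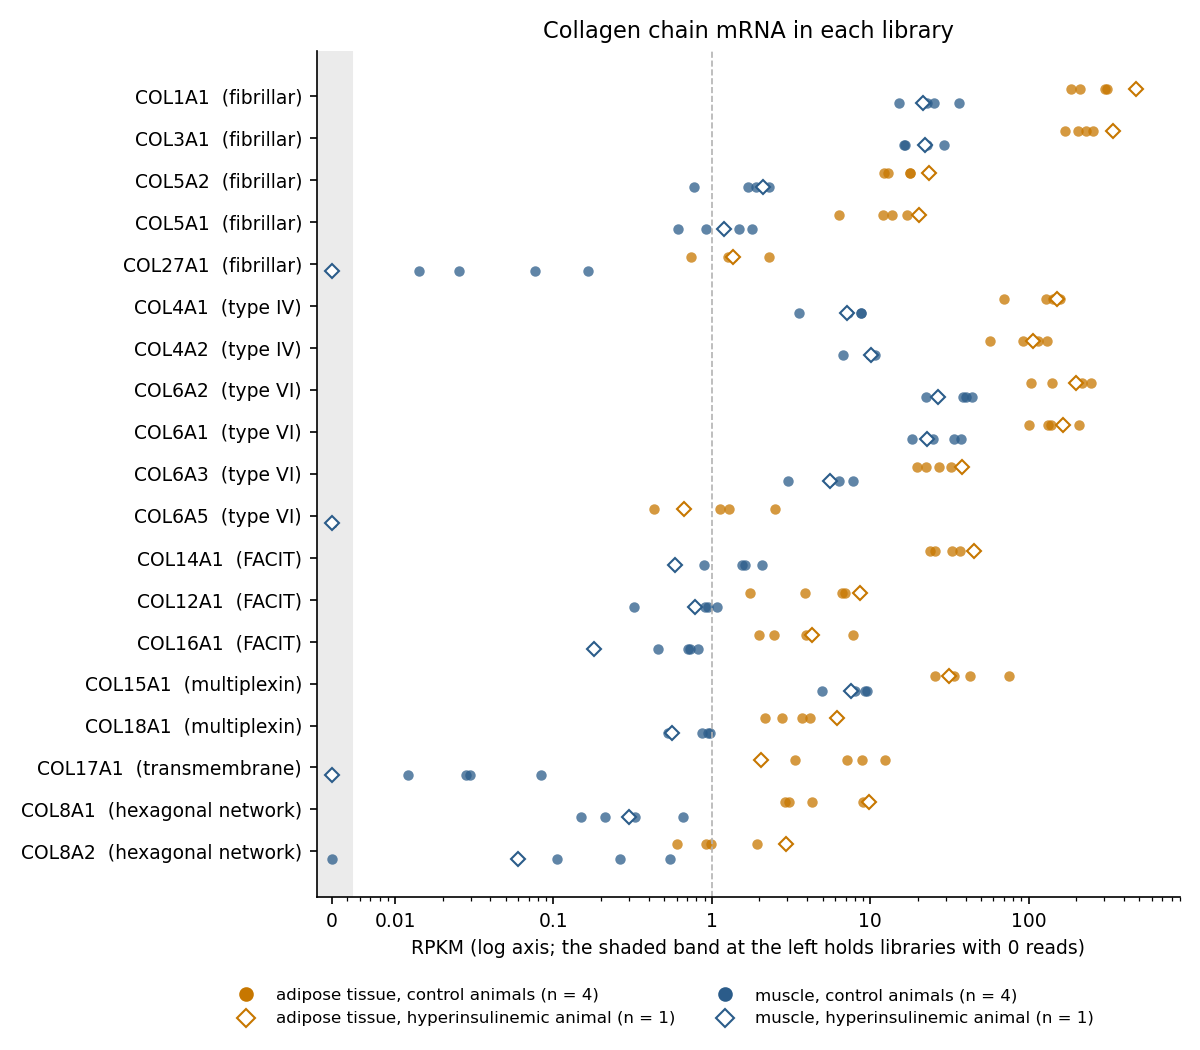
RPKM (log axis) of the 19 collagen chains that averaged at least 1 RPKM in adipose tissue, by class. Filled circles are the 4 control monkeys and open diamonds the hyperinsulinemic monkey, orange in adipose tissue and blue in muscle, and the dashed line marks 1 RPKM. Every adipose library lies above every muscle library for each of these chains, which were kept for their adipose level, and for 62.9% of all 11981 genes kept in the same way.

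Between the tissues of the controls, 16 chains averaged at least 1 RPKM and were tested, and 12 were higher in adipose tissue by at least 1 log2 unit at an adjusted p under 0.05, against 0 higher in muscle. Over all 11173 genes tested, 29.6% were called higher in adipose tissue and 22.0% higher in muscle. Under scaling by mapped totals all 16 chains were called higher in adipose tissue, and so were most genes called (7040 against 799 higher in muscle, where TMM scaling gave 3308 and 2459). Since the 16 passed the filter mostly through adipose tissue, their count describes them and is not support. Without the adipose libraries of rhesus_920401 and rhesus_940313 the count was also 12, but the set differed, since *COL16A1* was no longer called. The median log2 difference of the 16 was 1.88, beside 0.23 for all genes. In bulk tissue, more cells of a collagen-making type and more RNA per cell cannot be told apart. Fibroblast markers summed to 1309 to 2497 RPKM in control adipose tissue and 148 to 215 in control muscle, with 8 of 8 detected in both. Endothelial markers summed to 130.3 to 199.8 and 33.9 to 52.5, and their part in the collagen differences was not tested.

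All 4 fibrillar chains tested were higher in adipose tissue, by a narrow range of log2 1.81 to 1.96. *COL1A1* (chromosome 16, 34422693 to 34440496, minus strand), the α1 chain of type I collagen, measured 313, 304, 185 and 210.1 RPKM in adipose tissue and 23.0, 25.3, 15.2 and 36.4 in muscle. The adipose values lay far above the muscle values with no overlap (edgeR, log2 1.94 ± 0.33 (SE), adjusted p = 0.000341). *COL3A1* (chromosome 12, 52615946 to 52654099, plus strand), which forms type III collagen, measured 206, 254, 169 and 229 RPKM against 16.4, 22.9, 16.7 and 29.1 (edgeR, log2 1.95 ± 0.28 (SE), adjusted p = 0.000120). Its neighbour *COL5A2* lies 16.7 kb away on the other strand (chromosome 12, 52670754 to 52751229, minus strand). *COL5A2* and *COL5A1* encode chains of type V collagen, a minor fibrillar collagen that sets the diameter of type I fibrils. *COL5A2* measured 17.8, 12.9, 12.2 and 17.8 RPKM against 1.69, 2.28, 0.772 and 1.91 (edgeR, log2 1.81 ± 0.30 (SE), adjusted p = 0.000329). *COL5A1* (chromosome 15, 3475112 to 3547403, minus strand) measured 13.7, 12.1, 6.35 and 17.1 RPKM against 1.48, 0.916, 0.609 and 1.80 (edgeR, log2 1.96 ± 0.39 (SE), adjusted p = 0.00100). The estimates of these 4 chains thus lay close together, at levels that differed from each other widely in RPKM. Fibrillar chains under the filter did not share this value. Tested without the filter, *COL27A1* gave log2 2.93 ± 0.85 (SE) and *COL11A2* ran toward muscle, at log2 -5.76 ± 0.79 (SE). *COL11A1* and *COL2A1* had at most 19 and 1 reads in any control library.

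The ubiquitous type IV pair had the largest median log2 difference, 2.38, among the classes with more than 1 chain tested. *COL4A1* (chromosome 17, 90236824 to 90301252, minus strand) measured 143, 128, 70.4 and 157 RPKM in adipose tissue and 7.28, 8.71, 3.53 and 8.72 in muscle (edgeR, log2 2.76 ± 0.35 (SE), adjusted p = 4.24e-05). *COL4A2*, which lies 230.0 kb from *COL4A1* in the opposite orientation (chromosome 17, 90531224 to 90588673, plus strand), measured 114, 132, 56.9 and 92.5 RPKM against 10.02, 9.98, 6.71 and 10.7 (edgeR, log2 2.004 ± 0.27 (SE), adjusted p = 7.68e-05). Monkey rhesus_940313 was the lowest control for both chains in both tissues. The ratio of *COL4A1* to *COL4A2* was 0.977 to 1.70 in control adipose tissue and 0.525 to 0.872 in control muscle, without overlap. The ratio's absolute value depends on the annotated transcript lengths, 6238 and 4306 bases, but the same lengths apply in every library. The restricted chains were sparse. *COL4A5* reached 0.389 to 0.606 RPKM in control adipose tissue and at most 0.0485 in control muscle, and *COL4A6* reached 0.157 to 0.302 and at most 0.0391. *COL4A3* had the opposite tendency with overlapping values, 0.162, 0.0789, 0.166 and 0.0470 RPKM in adipose tissue and 0.151, 0.969, 0.493 and 0.430 in muscle.

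Type VI collagen was abundant in both tissues and differed least among these 3 classes. *COL6A1* (chromosome 3, 775352 to 797069, minus strand) measured 209, 139, 99.9 and 132 RPKM in adipose tissue and 37.3, 25.0, 18.3 and 34.0 in muscle (edgeR, log2 0.93 ± 0.29 (SE), adjusted p = 0.0159). *COL6A2*, its neighbour at 105 kb on the same strand (chromosome 3, 648985 to 670454, minus strand), measured 218, 249, 104 and 141 RPKM against 40.2, 38.5, 22.4 and 44.0 (edgeR, log2 0.90 ± 0.31 (SE), adjusted p = 0.0251). *COL6A3* (chromosome 12, 101179836 to 101252721, minus strand) encodes the longest chain of the trimer and measured 32.5, 22.6, 19.8 and 27.2 RPKM against 7.77, 6.39, 3.05 and 5.57 (edgeR, log2 0.77 ± 0.28 (SE), adjusted p = 0.0316). All 3 passed the adjusted p but stayed under the log2 difference of 1, so none counts among the 12. With mapped totals their differences instead were 2.34, 2.30 and 2.16, past both thresholds. With TMM scaling and a filter at a mean of 5 RPKM they passed as well, *COL6A1* (log2 1.26, adjusted p = 0.00306), *COL6A2* (log2 1.20, adjusted p = 0.00452) and *COL6A3* (log2 1.10, adjusted p = 0.00624). Leaving out monkey rhesus_950509 also put *COL6A1* (log2 1.07, adjusted p = 0.0301) and *COL6A2* (log2 1.11, adjusted p = 0.0297) past them. *COL6A5* had 228, 37, 122 and 141 reads in control adipose tissue and 0 in all 5 muscle libraries.

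Of the FACIT chains, *COL14A1* (chromosome 8, 122625575 to 122892697, plus strand), a fibril surface collagen of dense connective tissue, stood out with 32.6, 25.6, 23.8 and 36.9 RPKM in adipose tissue and 1.63, 1.54, 0.893 and 2.07 in muscle. The 2 tissues were far apart with no overlap (edgeR, log2 2.89 ± 0.28 (SE), adjusted p = 6.34e-06). *COL12A1*, a related chain of tendon and fascia, measured 6.91, 3.90, 1.74 and 6.68 RPKM against 0.945, 0.909, 0.324 and 1.08 (edgeR, log2 1.16 ± 0.44 (SE), adjusted p = 0.0366). *COL16A1* measured 7.74, 1.99, 2.45 and 3.94 RPKM against 0.724, 0.816, 0.461 and 0.711 (edgeR, log2 1.16 ± 0.39 (SE), adjusted p = 0.0225). The last 2 calls rest on few animals. *COL12A1* was not called without rhesus_920401 (log2 1.09, adjusted p = 0.106), rhesus_940129 (log2 1.19, adjusted p = 0.0877) or rhesus_950509 (log2 1.11, adjusted p = 0.0840). *COL16A1* was not called without rhesus_920401 (log2 0.770, adjusted p = 0.131), rhesus_940313 (log2 1.16, adjusted p = 0.0556) or rhesus_950509 (log2 1.19, adjusted p = 0.0659). It was also not called without the adipose libraries of rhesus_920401 and rhesus_940313 (log2 0.766, adjusted p = 0.158).

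The multiplexins differed from each other. *COL15A1* (chromosome 15, 37158731 to 37286022, minus strand), which links basement membranes to fibrils in muscle and vessels, measured 25.5, 75.5, 42.9 and 34.0 RPKM in adipose tissue and 8.05, 9.57, 4.98 and 9.32 in muscle (edgeR, log2 1.11 ± 0.34 (SE), adjusted p = 0.0146). Its call was lost without rhesus_940129 (log2 0.737, adjusted p = 0.0736) or rhesus_940313 (log2 0.925, adjusted p = 0.0785). *COL18A1*, the precursor of endostatin, measured 3.71, 4.15, 2.17 and 2.76 RPKM against 0.970, 0.951, 0.532 and 0.869 and did not pass the test (edgeR, log2 0.55 ± 0.34 (SE), adjusted p = 0.177, 95% CI -0.19 to 1.30), although every adipose value in RPKM exceeded every muscle value. The hexagonal network chain *COL8A1* measured 8.997, 2.91, 3.05 and 4.30 RPKM against 0.325, 0.659, 0.150 and 0.212 (edgeR, log2 2.45 ± 0.52 (SE), adjusted p = 0.00157). Its partner *COL8A2* was lower, with 0.925, 1.93, 0.981 and 0.604 RPKM against 0, 0.546, 0.105 and 0.261, and was not tested between tissues.

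*COL17A1* (chromosome 9, 103730645 to 103784991, minus strand), the transmembrane collagen of hemidesmosomes in epithelia, had the largest difference of all chains tested. It measured 3.37, 12.4, 8.85 and 7.09 RPKM in control adipose tissue, on 508, 1760, 1580 and 1293 reads, and 0.0279, 0.0121, 0.0299 and 0.0831 in control muscle, on 5, 2, 6 and 14 reads (edgeR, log2 6.32 ± 0.61 (SE), adjusted p = 5.29e-06). The adipose values themselves spread widely, with rhesus_920401 lowest and rhesus_940129 highest. Of the keratinocyte markers, *KRT1* and *DSG3* were at 0 in all 10 libraries and 4 of 6 stayed under 0.1 RPKM in every adipose library, while *DSP*, a desmosome gene, reached 5.23 to 9.27 RPKM in control adipose tissue and at most 0.00977 in control muscle. *TP63*, the other keratinocyte marker tested, was higher in muscle, at 1.27 to 2.92 RPKM against 0 to 0.0425. Mesothelial markers summed to 787 to 2550.5 RPKM in control adipose tissue and 0 to 1.08 in control muscle. Their part in the *COL17A1* difference was not tested.

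**Figure D2:**
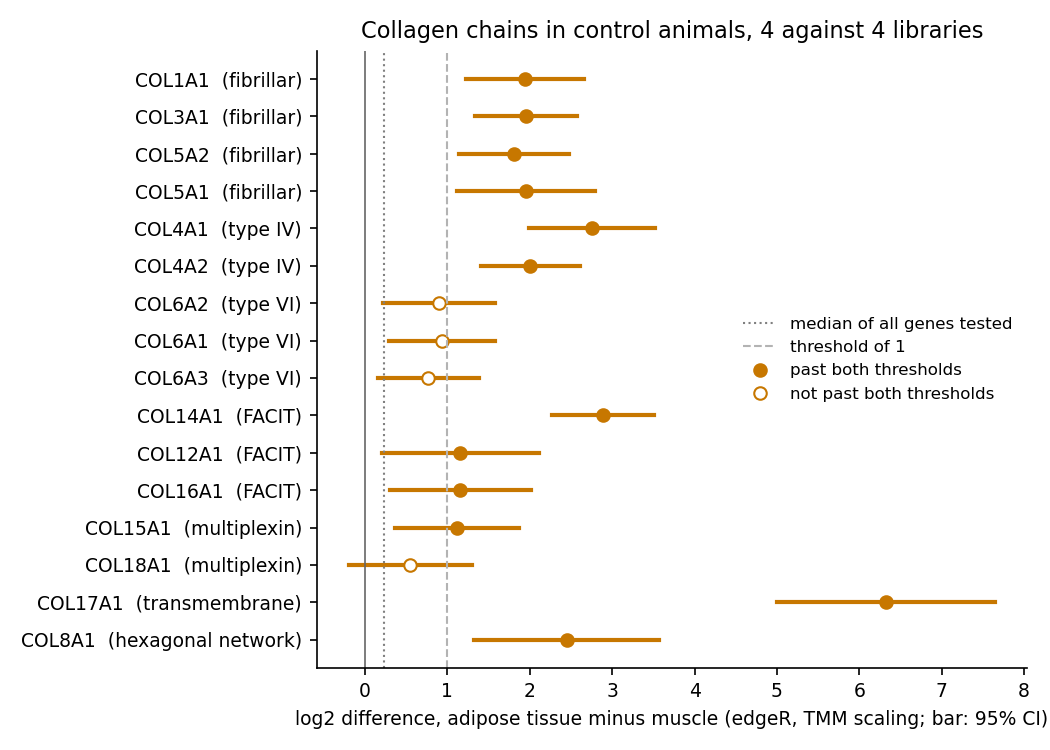
Log2 difference between adipose tissue and muscle in the 4 control monkeys (edgeR, TMM scaling) for the 16 collagen chains tested, with 95% confidence intervals. Filled circles pass both thresholds, the dotted line is the median of all genes (0.23) and the dashed line the threshold of 1. The 3 type VI chains sit at 0.77 to 0.93, under the fibrillar and type IV chains.

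Among the 19 chains not tested between tissues, 6 had every control adipose value above every control muscle value (*COL4A5*, *COL4A6*, *COL6A5*, *COL8A2*, *COL20A1* and *COL27A1*), 12 overlapped, and *COL11A2* alone ran the other way. Of the 6867 genes with a read in the controls and no test between tissues, 30.5% lay higher in adipose tissue in the same manner and 1.88% higher in muscle. *COL11A2* (chromosome 4, 32878196 to 32906908, minus strand), a chain of type XI collagen of cartilage fibrils, measured 0.352, 1.05, 0.922 and 1.11 RPKM in control muscle, on 75, 207, 220 and 222 reads, and 0, 0.0828, 0.0706 and 0.00921 in adipose tissue, on 0, 14, 15 and 2 reads. When genes were tested without the filter on low values, *COL11A2* passed in the direction of muscle (edgeR, log2 -5.76 ± 0.79 (SE), adjusted p = 1.54e-05), as did *COL4A3* (log2 -3.56 ± 0.60 (SE), adjusted p = 0.000126). *COL19A1* also passed there (adjusted p = 0.0343), but on 0, 6, 2 and 2 reads in muscle and 0 in adipose tissue, so no fold is given. Tendon and cartilage markers summed to 17.8 to 82.5 RPKM in control muscle and 12.9 to 35.2 in control adipose tissue, where *FMOD* carried most of the sum (10.7 to 22.8 RPKM). All 4 of these markers that were tested had a negative log2 difference with TMM scaling, with a median of -2.29, and 2 were called higher in muscle. In RPKM *FMOD* ran lower in control muscle, at 2.42 to 12.8 against 10.7 to 22.8, with overlap. *MKX*, not tested, was higher in adipose tissue, at 0.0625 to 0.778 RPKM in the controls against 0 to 0.0537 in their muscle. *ACAN*, the cartilage proteoglycan, measured at most 0.155 RPKM in any library, and the part of these markers in the *COL11A2* level was not tested.

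Shares within a library do not depend on scaling between libraries, so the make-up of the collagen message can be set side by side. Fibrillar chains held 42.7% ± 2.31 (SD, n = 4) of collagen RPKM in control adipose tissue and 33.3% ± 4.42 (SD, n = 4) in control muscle. Type IV chains held 18.9% ± 2.66 (SD, n = 4) and 11.4% ± 0.833 (SD, n = 4), and type VI chains 29.5% ± 3.19 (SD, n = 4) and 46.9% ± 4.57 (SD, n = 4). For all 3 classes the 4 adipose libraries lay on one side of the 4 muscle libraries, type VI being the class with the larger share in muscle. The summed RPKM of control adipose tissue over that of control muscle was log2 3.31 for fibrillar, 3.72 for type IV and 2.31 for type VI chains. Unlike the shares, these ratios do depend on scaling between libraries. With TMM scaling they were 1.92, 2.33 and 0.91. COL1A2 is not among these chains, so the fibrillar share is of the chains with a row. FACIT chains held 3.41% ± 0.836 (SD, n = 4) and 2.07% ± 0.188 (SD, n = 4), and multiplexins 4.17% ± 1.76 (SD, n = 4) and 5.87% ± 0.560 (SD, n = 4). Expressed against *COL1A1*, *COL6A1* was 0.458 to 0.670 in control adipose tissue and 0.936 to 1.62 in control muscle, and *COL14A1* was 0.0843 to 0.176 and 0.0570 to 0.0709. The ratio of *COL1A1* to *COL3A1* overlapped between tissues, with 0.918 to 1.52 in adipose tissue and 0.913 to 1.40 in muscle. That of the type VI partners *COL6A1* and *COL6A2* overlapped as well, at 0.558 to 0.960 and 0.649 to 0.928.

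In the hyperinsulinemic monkey the fibrillar share of adipose collagen was 52.7%, above the control range of 40.4% to 45.9%, and the type VI share was 24.6%, below the control range of 26.8% to 33.9%. The type IV share, 15.8%, was inside 15.7% to 22.3%. In muscle its fibrillar share was 36.5% (controls 27.1% to 37.3%), its type VI share 42.0% (controls 44.3% to 53.8%) and its type IV share 13.7% (controls 10.5% to 12.5%). The fibrillar sum itself was 862 RPKM in its adipose tissue against 551, 585, 374 and 475 in the controls, and 47.9 in its muscle against 43.0, 52.7, 34.3 and 70.4. The type VI sum was 403 RPKM in its adipose tissue, within the controls' 225 to 462. In its muscle it was 55.2 RPKM, within 43.8 to 85.2. The type IV sum in its muscle also lay within the control range. Shares within a library depend on each other, so a lower type VI share is not by itself a lower type VI level. With 1 animal these are descriptions with no test.

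**Figure D3:**
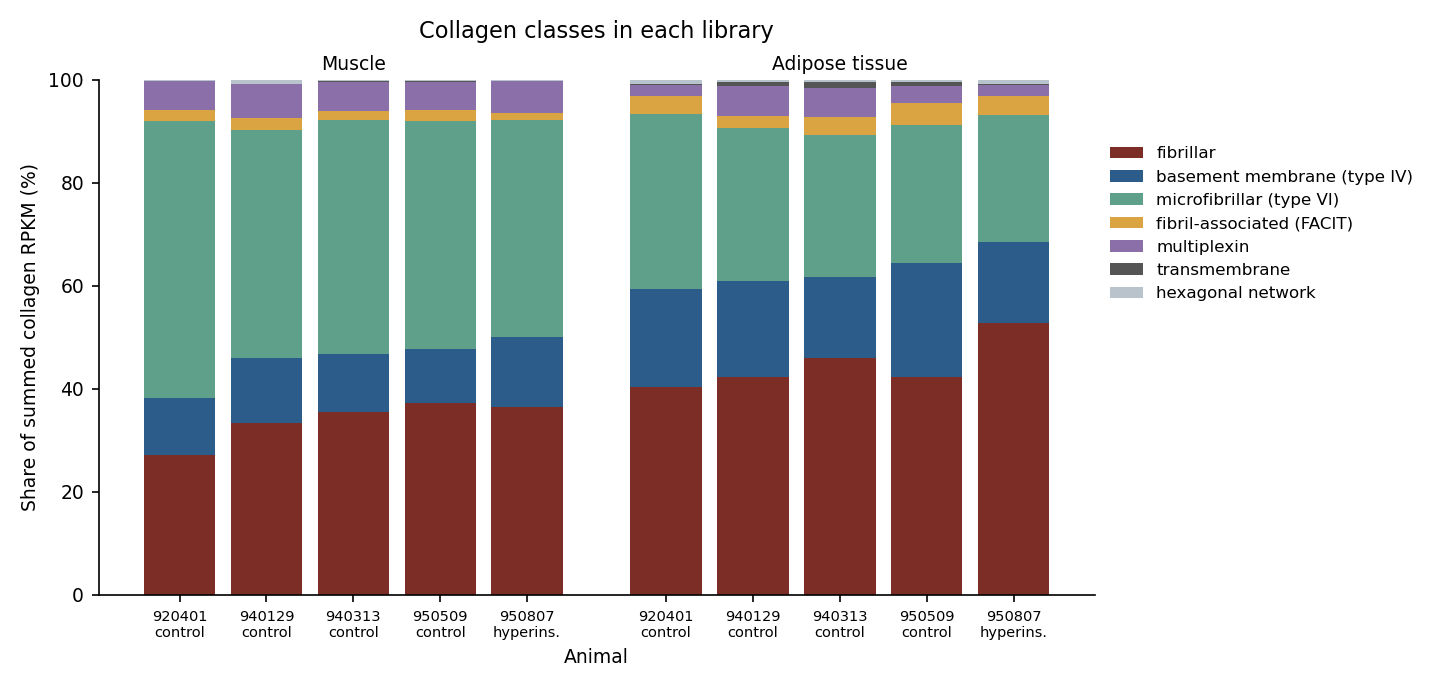
Share of summed collagen RPKM (%) held by each class of chains in each library, muscle at the left and adipose tissue at the right, with the hyperinsulinemic monkey last in each block. In RPKM, type VI is the largest class in all 5 muscle libraries and fibrillar the largest in all 5 adipose libraries, reaching 52.7% in the hyperinsulinemic monkey. The muscle order depends on transcript length. By reads, type VI led fibrillar in muscle only in rhesus_920401 (46.8% against 32.3%). Fibrillar led in rhesus_940129 (38.9% against 37.3%), rhesus_940313 (41.8% against 37.8%), rhesus_950509 (43.6% against 36.3%) and rhesus_950807 (41.7% against 35.7%).

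The controls differed among themselves in a shared way. Monkey rhesus_940313 was the lowest of the 4 controls for 10 of the 11 chains tested in muscle and 12 of the 19 tested in adipose tissue by RPKM, and for 11 and 12 by TMM-scaled counts. Over all genes tested it was the lowest control for 23.2% in muscle and 29.7% in adipose tissue by RPKM. By TMM-scaled counts these shares were 28.7% and 21.2%. At the top, monkey rhesus_950509 was highest for 7 of 11 chains in muscle (17.5% of all genes), and rhesus_940129 for 8 and rhesus_920401 for 7 of 19 in adipose tissue (33.1% and 25.4% of all genes). The highest control exceeded the lowest by 1.59 to 2.96 times in muscle (median 2.32) and by 1.46 to 5.81 times in adipose tissue (median 2.39). *COL3A1* had the smallest relative spread of the 19 chains in adipose tissue, at 215 ± 36.0 (SD, n = 4) RPKM, while *COL16A1*, at 4.03 ± 2.61 (SD, n = 4), had the largest.

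Genes that make, trim, crosslink and bind collagen were read from fixed lists beside the chains. Of the enzymes that hydroxylate and glycosylate the chains, 12 of 14 with a row were tested, 5 were called higher in adipose tissue and 0 higher in muscle, beside 29.6% and 22.0% of all genes. The lysyl hydroxylase gene *PLOD2* measured 7.41 ± 3.49 RPKM (SD, n = 4) in control adipose tissue and 0.770 ± 0.220 in control muscle (edgeR, log2 1.90 ± 0.41 (SE), adjusted p = 0.00195), and *CRTAP*, a partner of prolyl hydroxylation, 47.9 ± 13.3 against 6.30 ± 1.51 (edgeR, log2 1.54 ± 0.26 (SE), adjusted p = 0.000312). In the folding and secretion list 4 of 8 tested genes were called higher in adipose tissue and 0 in muscle (the same shares of all genes apply), among them the prolyl isomerase *FKBP14* (edgeR, log2 2.84 ± 0.82 (SE), adjusted p = 0.00986) and the endoplasmic reticulum chaperone *HSP90B1* (edgeR, log2 2.49 ± 0.32 (SE), adjusted p = 4.29e-05).

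Of the procollagen processing genes, 3 of 4 tested were called higher in adipose tissue and 0 in muscle, where 29.6% and 22.0% of all genes were. *ADAMTS2*, which removes the amino-terminal propeptide of fibrillar procollagens, measured 12.4 ± 3.60 RPKM against 1.19 ± 0.574 (edgeR, log2 1.99 ± 0.37 (SE), adjusted p = 0.000639), and the enhancer of carboxy-terminal cleavage *PCOLCE2* measured 24.6 ± 12.3 against 2.75 ± 1.08 (edgeR, log2 1.74 ± 0.35 (SE), adjusted p = 0.00125). The crosslinking list had a row for 3 of 6 genes, and 1 of 3 was called, *LOXL3*, a lysyl oxidase (edgeR, log2 1.79 ± 0.34 (SE), adjusted p = 0.000734). Among the receptors 4 of 6 tested were called higher in adipose tissue and 0 in muscle. The discoidin domain receptor gene *DDR2* measured 24.9 ± 14.9 RPKM against 0.611 ± 0.142 (edgeR, log2 3.95 ± 0.43 (SE), adjusted p = 1.42e-05), and the integrin subunit *ITGA1* 6.86 ± 4.54 against 0.349 ± 0.316 (edgeR, log2 2.93 ± 0.65 (SE), adjusted p = 0.00210). The list medians were 0.74, 1.17, 1.69, 0.81 and 2.17 on the log2 scale in the order given, beside 0.23 for all genes and 1.88 for the collagen chains. Called genes such as *FKBP14* (0.233 RPKM in control muscle), *ITGA1* (0.349) and *LOXL3* (0.490) passed the filter through their adipose level. The counts and medians of these lists therefore describe them and are not support.

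The hyperinsulinemic monkey was next compared with the 4 controls in each tissue. In muscle, 11 chains were tested and 0 passed an adjusted p under 0.05 in either direction, as was true of all 8306 genes (0% called). With edgeR 754 genes had an unadjusted p under 0.05, 1 of them a chain, and DESeq2 called 88 genes and 0 chains. The lone animal was assumed to vary like the controls. The chain with the smallest p was *COL14A1*, at 1.63, 1.54, 0.893 and 2.07 RPKM in the controls, on 396, 346, 243 and 474 reads, and 0.590 in the hyperinsulinemic monkey, on 126 reads. The value of the hyperinsulinemic monkey lay below all 4 controls, and the difference did not pass after adjustment (edgeR, log2 -1.57 ± 0.54 (SE), adjusted p = 0.496). By RPKM 0 of the 11 chains lay above all controls and 1 below, where 34.9% of all genes lay above and 15.2% below (24.3% and 23.8% by TMM-scaled counts). The ratio of *COL14A1* to *COL1A1* was 0.0272 in its muscle and 0.0570 to 0.0709 in the controls.

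The other muscle chains stayed within the control range. *COL6A2* measured 40.2, 38.5, 22.4 and 44.0 RPKM in the controls and 26.7 in the hyperinsulinemic monkey (edgeR, log2 -0.63 ± 0.40 (SE), adjusted p = 0.664), and *COL6A1* 37.3, 25.0, 18.3 and 34.0 and 23.0 (edgeR, log2 -0.51 ± 0.41 (SE), adjusted p = 0.746). For *COL1A1* the log2 difference was -0.40 (95% CI -1.40 to 0.60) at 21.7 RPKM, and for *COL3A1* it was -0.14 (-0.98 to 0.71) at 22.0. For the type IV pair it was -0.16 (-1.20 to 0.88) and -0.064 (-0.80 to 0.68), and for *COL15A1* -0.27 (-1.14 to 0.60). Each of these intervals spans more than 1 log2 unit and holds differences of either sign, so with 1 animal the direction is not settled. *COL5A1*, *COL5A2* and *COL6A3* gave -0.21, 0.15 and -0.22. Among chains too low to be tested in muscle, *COL16A1* measured 0.181 RPKM, on 32 reads, below the controls' 0.724, 0.816, 0.461 and 0.711. Smooth muscle and pericyte markers summed to 60.1 RPKM in the muscle of the hyperinsulinemic monkey and 99.9 to 143 in the controls, with 5 of 8 below all controls. Tendon and cartilage markers summed to 7.08 against 17.8 to 82.5 (3 of 6 below all controls), and fibroblast markers to 139 against 148 to 215 (2 of 8 below and 1, *PDGFRA*, above, at 3.96 against 2.85 to 3.29 RPKM). Macrophage markers summed to 5.47 against 5.58 to 17.6 (2 of 6 below). Endothelial markers, at 37.4, lay within 33.9 to 52.5 (1 of 6 below), and adipocyte markers, at 98.4, within 68.7 to 144 (1 of 8 below). Muscle fiber markers summed to 62790 against 49678 to 61870.0 (3 of 7 above and 2 below). The 2 below were the slow fiber genes *MYH7* (12.9 against 45.5 to 531 RPKM) and *TNNT1* (14.3 against 69.7 to 651). By RPKM, 15.2% of all genes tested in muscle lay below all controls and 34.9% above. The part of these markers in the *COL14A1* difference was not tested.

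In adipose tissue, 19 chains were tested and 0 passed, beside 0 of 11981 genes (0% called, 286 at an unadjusted p under 0.05, and 11 genes and 0 chains by DESeq2). The position of its values among the controls was uneven between classes. In RPKM, the hyperinsulinemic monkey lay above all 4 controls for 10 of 19 chains, below all for 1 and between them for 8, where 27.9% of all genes lay above and 7.80% below. The chains gave the same counts by TMM-scaled counts, where 15.7% of all genes lay above and 14.3% below. The 10 were *COL1A1*, *COL3A1*, *COL5A1*, *COL5A2*, *COL6A3*, *COL8A1*, *COL8A2*, *COL12A1*, *COL14A1* and *COL18A1*. Against the 2 controls without the doubted libraries, 12 of 19 lay above both in RPKM, beside 38.4% of all genes, and 2 below both, beside 15.5%. By TMM-scaled counts 10 lay above, beside 25.3%, and 4 below, beside 24.3%. The median log2 difference of the 19 was 0.40, beside -0.062 over all genes.

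*COL1A1* measured 313, 304, 185 and 210.1 RPKM in control adipose tissue and 475 in the hyperinsulinemic monkey, the highest of the 5 (edgeR, log2 0.72 ± 0.47 (SE), adjusted p = 0.9999, 95% CI -0.32 to 1.76). *COL3A1* measured 206, 254, 169 and 229 and 341 (edgeR, log2 0.47 ± 0.45 (SE), adjusted p = 0.9999). The type V chains followed, *COL5A1* with 13.7, 12.1, 6.35 and 17.1 RPKM against 20.3 and *COL5A2* with 17.8, 12.9, 12.2 and 17.8 against 23.6, at log2 differences of 0.54 and 0.45. So 4 of the 5 fibrillar chains tested lay above all controls, the exception being *COL27A1* (0.737 to 2.31 RPKM against 1.37). The type IV pair lay within them, *COL4A1* at 150.4 RPKM (controls 70.4 to 157) and *COL4A2* at 107 (controls 56.9 to 132), with log2 differences of 0.087 and -0.070. *COL6A1* and *COL6A2* also lay within, at 165 and 199 RPKM, with log2 differences of 0.0047 and -0.027, whereas *COL6A3* measured 38.2 against 19.8 to 32.5. The ratio of *COL6A1* to *COL1A1* was 0.346, below the control range of 0.458 to 0.670, and that of *COL4A1* to *COL1A1* was 0.316, below 0.381 to 0.748. Of the 10 ratios of chains computed, several of which share *COL1A1*, 4 lay outside the control range in adipose tissue and 3 in muscle. Among all single genes tested, by RPKM, 27.9% lay above all controls and 7.80% below in adipose tissue. In muscle these shares were 34.9% and 15.2%. The counts of ratios therefore describe them and are not support.

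The remaining classes were mixed. *COL8A2*, one of the short network chains, measured 0.925, 1.93, 0.981 and 0.604 RPKM in the controls and 2.93 in the hyperinsulinemic monkey (edgeR, log2 1.19 ± 0.64 (SE), adjusted p = 0.9999), and *COL8A1* 8.997, 2.91, 3.05 and 4.30 and 9.76 (edgeR, log2 0.86 ± 0.57 (SE), adjusted p = 0.9999). Both were highest in the hyperinsulinemic monkey, though rhesus_920401 came close for *COL8A1*. The multiplexins parted, with *COL18A1* at 6.16 RPKM above the controls' 2.17 to 4.15 (log2 0.76) and *COL15A1* at 31.4 within 25.5 to 75.5 (log2 -0.72). Their ratio, *COL15A1* over *COL18A1*, was 5.09, below 6.87 to 19.8 in the controls. Among the 19 chains tested in adipose tissue, *COL17A1* had the smallest p and was the only chain below all controls. It measured 2.05 RPKM on 397 reads against 3.37, 12.4, 8.85 and 7.09 (edgeR, log2 -2.18 ± 0.75 (SE), adjusted p = 0.9999). Control rhesus_920401 lay nearest to it, and mesothelial markers summed to 1649 RPKM in the hyperinsulinemic monkey, within the controls' 787 to 2550.5. Most of that sum is *ITLN1* (1480.0 RPKM), while 3 of the 6 markers, *WT1*, *KRT19* and *BNC1*, lay above all controls and *CALB2* lay below. *DSP* was 16.3 RPKM there, above 5.23 to 9.27. Macrophage markers summed to 287 RPKM in its adipose tissue against 77.8 to 239.7, with 5 of 6 above all controls, and fibroblast markers to 2473 against 1309 to 2497, with 4 of 8 above, *DCN* among them (1557 against 790.1 to 1278). Endothelial markers summed to 232 RPKM, above the controls' 130.3 to 199.8 (2 of 6 above), and smooth muscle and pericyte markers to 684 within 576 to 1371 (3 of 8 above). By RPKM, 27.9% of all genes tested in adipose tissue lay above all controls. The part of these markers in the collagen values was not tested.

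**Figure D4:**
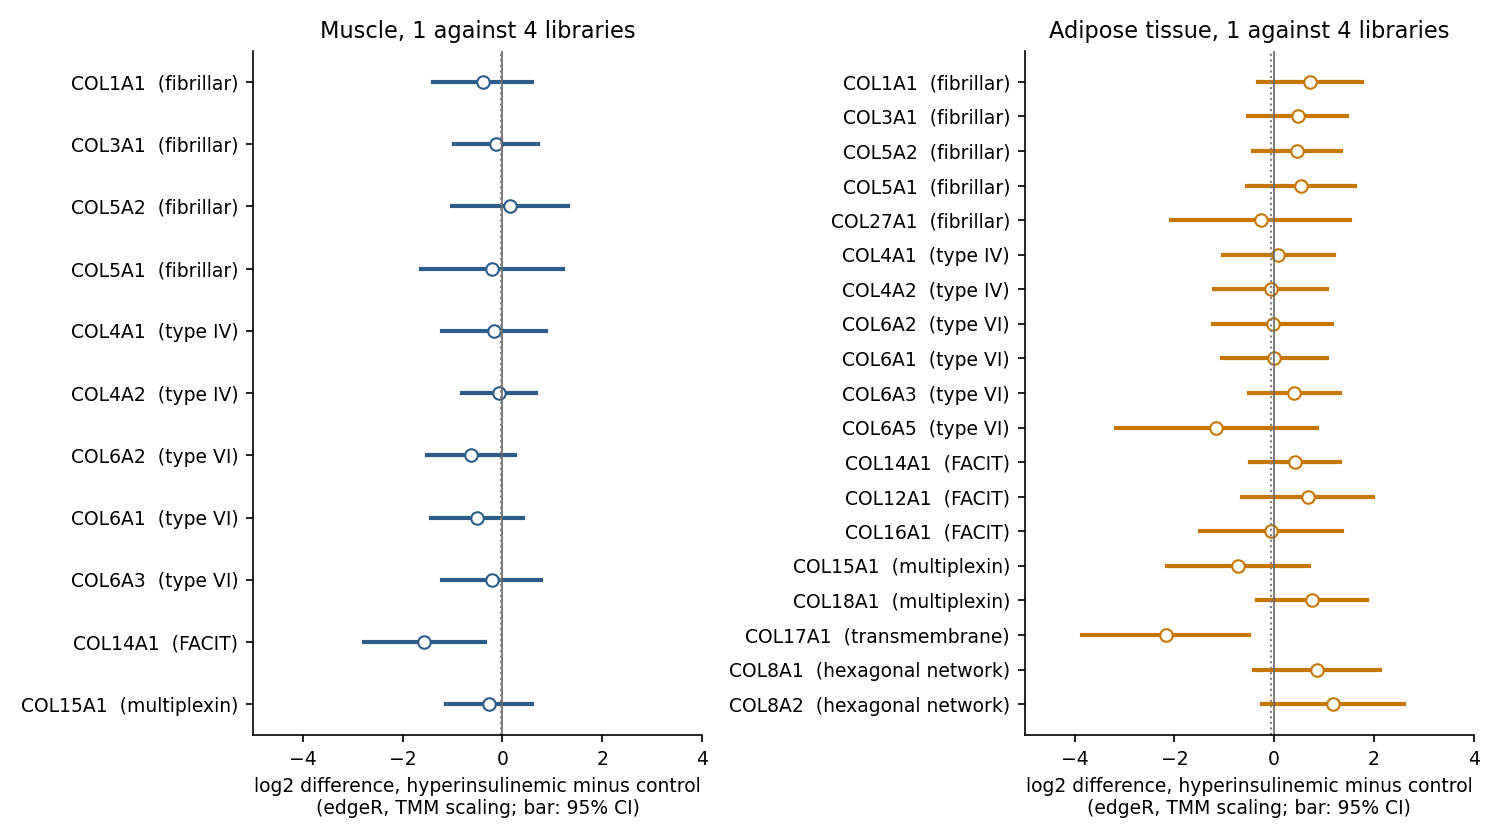
Log2 difference between the hyperinsulinemic monkey and the 4 controls (edgeR, TMM scaling) with 95% confidence intervals, for the 11 chains tested in muscle (left, blue) and the 19 in adipose tissue (right, orange). All circles are open because no chain passed an adjusted p under 0.05, and only the intervals of *COL14A1* in muscle and *COL17A1* in adipose tissue leave out 0.

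The difference between the effects in the 2 tissues was tested by an interaction term over 16 chains and all 10 libraries, and 0 chains passed, beside 0 of 11270 genes (0% called, 633 at an unadjusted p under 0.05, 12 genes and 0 chains by DESeq2). Of the 11 chains tested in both tissues, 7 had a positive log2 difference in adipose tissue and a negative one in muscle, 3 were negative in both and *COL5A2* was positive in both, all with TMM scaling. Some of these values lay near 0, such as *COL6A1* (0.0047) and *COL4A1* (0.087) in adipose tissue. The share of all genes with such signs was not counted. With mapped totals the sign of *COL3A1*, *COL4A1* and *COL4A2* turned in muscle and that of *COL4A2* and *COL6A2* in adipose tissue. *COL14A1* was the chain with the smallest p. It measured 45.0 RPKM in the adipose tissue of the hyperinsulinemic monkey, above the controls' 32.6, 25.6, 23.8 and 36.9, while in muscle it lay below all of them. The effect in adipose tissue exceeded that in muscle by a log2 difference that did not pass after adjustment (edgeR, log2 1.99 ± 0.61 (SE), adjusted p = 0.729). *COL16A1* gave log2 2.03 ± 0.91 (SE), adjusted p = 0.853 by edgeR, on the 32 muscle reads of the hyperinsulinemic monkey. For *COL1A1* the term was log2 1.14 (95% CI -0.43 to 2.71) and for *COL4A2* 0.020 (-1.27 to 1.31). The term for *COL17A1* is not interpreted, since the hyperinsulinemic monkey had 0 reads of it in muscle and the controls 5, 2, 6 and 14.

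**Figure D5:**
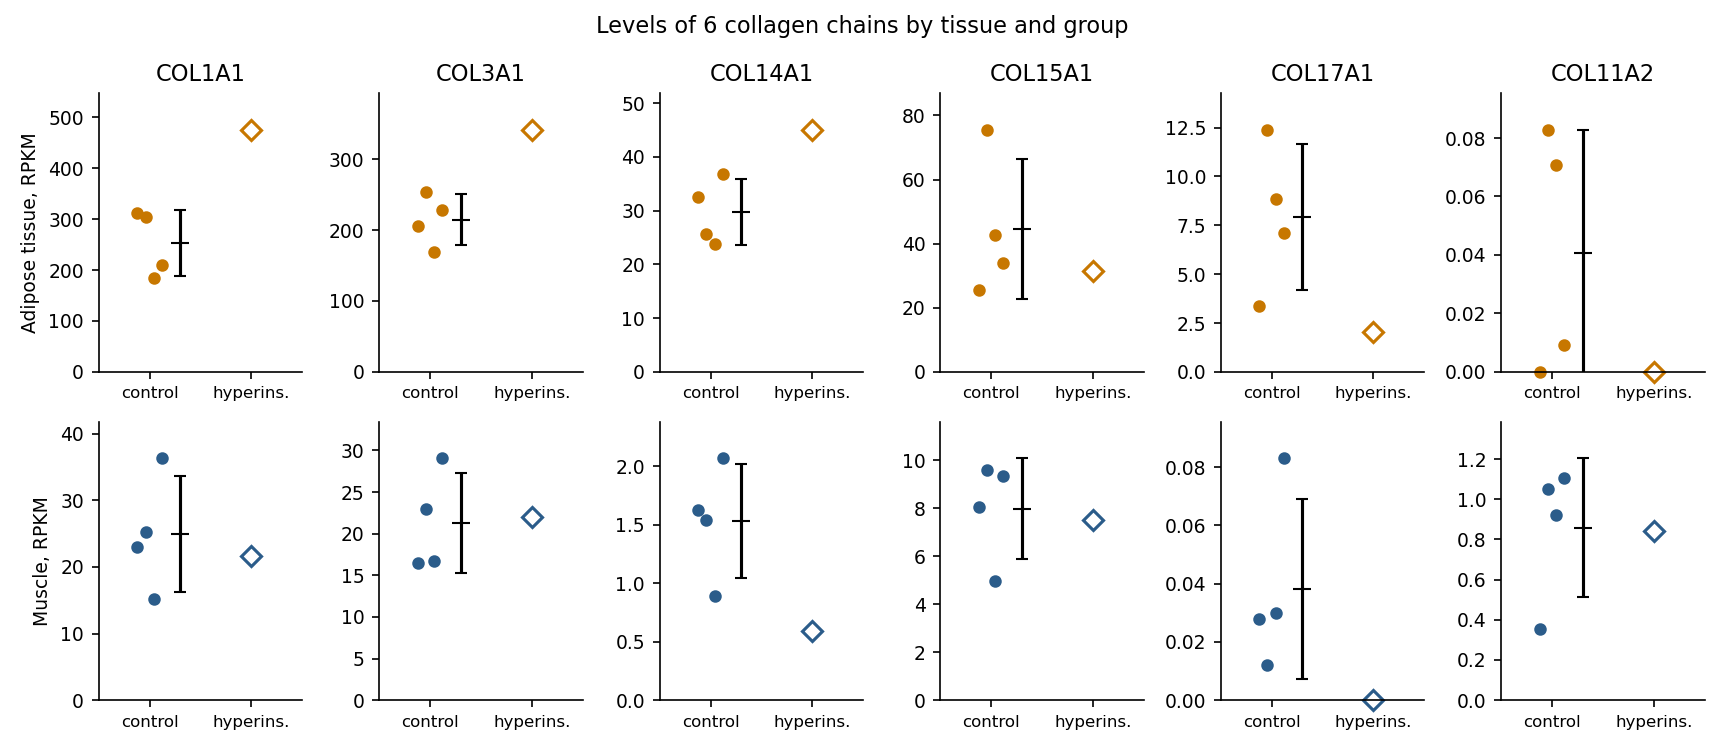
RPKM of 6 chains in each library, adipose tissue above and muscle below, each panel with its own linear axis from 0. Circles are the 4 controls, the black mark and bar their mean ± SD, and the diamond the hyperinsulinemic monkey, which is highest for *COL1A1*, *COL3A1* and *COL14A1* in adipose tissue and lowest for *COL14A1* in muscle.

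None of the genes of the collagen pathway lists passed the comparison of the hyperinsulinemic monkey with the controls in either tissue or the interaction (edgeR, 24 genes with a test in muscle, 33 in adipose tissue). In muscle, 4 of them had an unadjusted p under 0.05, in adipose tissue 0, and in the interaction 6 of 33. Over all genes these numbers were 754 of 8306, 286 of 11981 and 633 of 11270. The median log2 differences in muscle were -0.22 for chain modification, 0.34 for folding and secretion, -1.36 for procollagen processing, -0.28 for crosslinking and -0.64 for receptors, and in adipose tissue 0.32, 0.14, 0.35, -0.0096 and 0.0078. The chaperone of procollagen *SERPINH1* measured 181 ± 32.3 RPKM (SD, n = 4) in control adipose tissue and 259.8 in the hyperinsulinemic monkey, and 21.5 ± 6.41 and 13.0 in muscle. It was named after its values were seen, and its interaction term did not pass (edgeR, log2 1.25 ± 0.56 (SE), adjusted p = 0.853).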

How the data were processed

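Strand-specific poly(A) libraries (dUTP protocol) were made from Trizol-extracted RNA of muscle and adipose tissue, the latter labelled fat. The authors mapped reads with TopHat, release 1.2.0 per the submitters' processing notes and another in the study's methods, and kept uniquely mapped reads. Which tool counted the reads, on which genome build and with which gene models, was not given in the sources used here, and coordinates are as deposited, with starts shown counted from 1. The deposited files hold read counts per gene for 28595 Ensembl genes and RPKM, which the authors made by dividing counts by transcript length and mapped reads. All RPKM values were checked to equal this. Only uniquely mapped reads count, so stretches shared by similar chains are under-read. Symbols were found for 15556 genes (54.4%).

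Counts were tested with edgeR 4.0.16 (quasi-likelihood F test, TMM scaling, R 4.3.3) over genes that averaged at least 1 RPKM across the libraries compared, with Benjamini-Hochberg adjustment over all genes. The call threshold was an adjusted p under 0.05 and, between tissues, a log2 difference of 1 or more in size. The hyperinsulinemic monkey was compared with the controls within each tissue and by an interaction term, and the tissues within the controls. Alternatives were DESeq2 1.42.0, limma 3.58.1 on log2(RPKM + 1) and log2(RPKM + 0.1), other scalings and filters, leaving out each control, the animal as a block and, chosen after seeing the data, leaving out 2 adipose libraries. Fits were tested on simulated data. Both tissues come from the same animals, but same-animal deviations correlated by -0.17 to 0.16 across genes, and limma's animal correlation was -0.017. Class sums, shares and ratios have no test. Named between tissues are all chains tested, and against the hyperinsulinemic monkey the abundant chains of types I, III, IV, V, VI, XIV, XV and XVIII, all that pass and the 3 with the smallest p per tissue. Pathway genes named between tissues are up to 2 per list, those called with the largest differences, and others were chosen after their values were seen. The chains and gene lists were chosen with earlier results of these data known. Marker lists cover 10 cell types. Schwann cell markers, not printed above, summed to 2.66 to 6.02 RPKM in control muscle and 2.44 to 7.09 in control adipose tissue. Muscle fiber markers summed to 49678 to 61870.0 and 18.0 to 258 in the same order.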

Additional observations from a re-analysis of the deposited data

Results flagged for a closer look

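Of 39 control groups of chains and class sums searched, 2 held an animal far from the other 3, and chance alone flags about 1 group in 20. Summed type IV chains in control adipose tissue were 128 RPKM in monkey rhesus_940313, far below the other controls at 250.5 to 261. Both of the abundant chains took part, *COL4A1* at 70.4 RPKM and *COL4A2* at 56.9, and the same animal had the lowest type IV sum of the controls in muscle. Summed hexagonal network chains in control adipose tissue were 9.92 RPKM in monkey rhesus_920401, far above the others at 4.03 to 4.91, nearly all of it *COL8A1* (8.997 RPKM). These 2 libraries are those with the higher muscle actin, and its part in these values was not tested.

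*COL14A1* was flagged because the hyperinsulinemic monkey lay above all controls in adipose tissue and below all in muscle. It was the only 1 of the 11 chains tested in both tissues to do so. By RPKM, 27.9% of all genes tested lay above all controls in adipose tissue and 15.2% below all in muscle. By TMM-scaled counts these shares were 15.7% and 23.8%. The share of genes that did both was not counted. The interaction term of *COL14A1*, adipose tissue against muscle, was log2 1.99 ± 0.61 (SE), which did not pass after adjustment over all genes (edgeR, adjusted p = 0.729).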

How the results depend on the processing

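Of the 679 values of single chains recomputed under the alternatives (54 chain results), 612 kept direction and side of the threshold, 18 passed the threshold where the reported value did not, 9 no longer passed it and 40 changed sign. All 9 losses lie between tissues, in *COL12A1*, *COL15A1* and *COL16A1*, on leaving out animals or libraries, and all 40 changes of sign lie in comparisons with the hyperinsulinemic monkey, where no chain passed. The number of chains called higher in adipose tissue was 10 to 16 over the alternatives and 10 to 12 on leaving out each control. 3 chains were called higher in muscle without a filter, and 0 otherwise. All genes called between tissues numbered 3325 at a mean of at least 5 RPKM, where fewer genes were tested. With the animal as a replicate block the count was 12, the paired fit changed no call of a chain, and *COL14A1* gave 2.94.

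In comparisons with the hyperinsulinemic monkey, 0 chains were called under any alternative. All genes called in muscle numbered 88 with DESeq2, 1 with median-of-ratios scaling, 3 with mapped totals, 10 without a filter and 1 with limma at either pseudocount, and 0 to 14 on leaving out each control (most without rhesus_940313). In adipose tissue they numbered 11 by DESeq2, 33 when the adipose libraries of rhesus_920401 and rhesus_940313 were left out, and 0 to 6 on leaving out each control (most without rhesus_920401), and in the interaction 12 with DESeq2. The cause was not tested. Without those adipose libraries, which was chosen after seeing the data, 2 chains rather than 1 lay below the remaining controls in RPKM, beside 15.5% of all genes, and 4 by TMM-scaled counts, beside 24.3%.

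Log2 differences that changed sign in muscle were, with mapped totals, *COL3A1* at 0.051, *COL4A1* at 0.025 and *COL4A2* at 0.12, with limma on log2(RPKM + 1) *COL3A1* at 0.087, *COL5A1* at 0.022, *COL4A1* at 0.085, *COL4A2* at 0.12 and *COL6A3* at 0.025, and with limma on log2(RPKM + 0.1) *COL3A1* at 0.092, *COL5A1* at 0.084, *COL4A1* at 0.11, *COL4A2* at 0.14 and *COL6A3* at 0.042. On leaving out each control the ranges that cross 0 were *COL3A1* -0.27 to 0.096, *COL4A2* -0.23 to 0.042, *COL5A1* -0.47 to 0.091 and *COL5A2* -0.12 to 0.32. In adipose tissue they were, with mapped totals, *COL4A2* at 0.12 and *COL6A2* at 0.16, with limma on log2(RPKM + 1) *COL4A2* at 0.18 and *COL6A2* at 0.24, with limma on log2(RPKM + 0.1) *COL4A2* at 0.18 and *COL6A2* at 0.25, without a filter *COL6A1* at -0.0019, with all 10 libraries in the fit *COL6A1* at -0.041, and without the adipose libraries of rhesus_920401 and rhesus_940313 *COL4A1* at -0.13. Ranges on leaving out each control were *COL4A1* -0.073 to 0.22, *COL4A2* -0.23 to 0.13, *COL6A1* -0.098 to 0.18 and *COL6A2* -0.18 to 0.21. In the interaction, *COL17A1* at -1.38 with limma on log2(RPKM + 1), -1.31 on log2(RPKM + 0.1) and -1.38 with the replicate block, and *COL4A2* at -0.0067 without a filter, -0.17 without the adipose libraries of rhesus_920401 and rhesus_940313, and -0.081 to 0.27 on leaving out each control, had the other sign. The ratio of summed RPKM between tissues was log2 1.92 for fibrillar, 2.33 for type IV and 0.91 for type VI chains with TMM scaling. With 1 hyperinsulinemic animal and 4 controls, and with low read counts for many chains, small differences were not detectable.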

Other observations

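Some genes of the collagen pathway lists had an unadjusted p under 0.05 when muscle of the hyperinsulinemic monkey was set against the controls or in the interaction, and all of them are given here or in the report. None passed after adjustment over all genes. In muscle, the collagen-binding integrin subunit *ITGA11* measured 0.359 RPKM in the hyperinsulinemic monkey and 2.69 ± 1.35 (SD, n = 4) in the controls (edgeR, log2 -3.10 ± 0.82 (SE), adjusted p = 0.448), and in adipose tissue 23.7 against 21.9 ± 7.20. *MRC2*, a receptor that takes up collagen, measured 1.87 RPKM in its muscle against 3.65 ± 1.32 (SD, n = 4; edgeR, log2 -1.15 ± 0.51 (SE), adjusted p = 0.551), and *PCOLCE2*, the enhancer of procollagen cleavage, 1.07 against 2.75 ± 1.08 (edgeR, log2 -1.56 ± 0.65 (SE), adjusted p = 0.527). *MIA2*, a factor of export from the endoplasmic reticulum, measured 4.51 RPKM in its muscle against 1.53 ± 0.584 (SD, n = 4; edgeR, log2 1.39 ± 0.46 (SE), adjusted p = 0.495) and 2.68 in its adipose tissue against 3.25 ± 1.07. The procollagen protease *ADAMTS2* measured 23.3 RPKM in its adipose tissue against 12.4 ± 3.60 (SD, n = 4), and 0.529 in its muscle against 1.19 ± 0.574. The collagen chaperone *FKBP10* measured 34.0 RPKM in its adipose tissue against 16.1 ± 5.50 (SD, n = 4), and 2.75 in its muscle against 3.89 ± 0.626. The interaction term was positive for *ADAMTS2* (edgeR, log2 2.10 ± 0.82 (SE), adjusted p = 0.846), *FKBP10* (edgeR, log2 1.60 ± 0.57 (SE), adjusted p = 0.793), *ITGA11* (edgeR, log2 3.05 ± 0.90 (SE), adjusted p = 0.679) and *MRC2* (edgeR, log2 1.45 ± 0.62 (SE), adjusted p = 0.853), and negative for *MIA2* (edgeR, log2 -1.86 ± 0.83 (SE), adjusted p = 0.853).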
